A study of Zea mays with 12 samples.

Results

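Bundle sheath (BS) cells were compared with mesophyll (M) cells in the maturing section of the maize leaf, which is section 9, located 4 cm above the point where the sink-source transition (SST) is complete. The members of the comparison were all genes of the deposited expression table with a value above 0 in at least 1 of the 4 libraries of that section, 2 from BS cells and 2 from M cells. There were 39715 such genes, of 47572 above 0 in at least 1 of the 12 libraries of the series and of 110005 rows in the table, and 21016 of them were above 0 in all 4 libraries. All libraries were labelled as the inbred line Mo17, although the study's methods also name B73. The plants carried no labelled mutation or treatment and were grown together as seedlings. Both cell types came from acetone-fixed, paraffin-embedded leaf pieces by laser microdissection, in which chosen cells are cut out of a section under the microscope. The recovered RNA was amplified through 1 round before sequencing, and no label says whether the 2 replicates of a cell type came from separate plants. The other 8 libraries were BS and M cells, 2 of each, from section 4 at -1 cm (SST) and from section 14 at 9 cm (mature), and they enter the scaling, the filter and the estimate of spread behind every test below, and give the change of a BS/M difference between stages.

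Maize fixes carbon by the C4 pathway, which divides photosynthesis between these cell types. M cells take up CO2 with carbonic anhydrase and phosphoenolpyruvate carboxylase (PEPC) and make 4-carbon acids, which move to the BS, where decarboxylases release the CO2 beside Rubisco and the Calvin cycle refixes it. BS cells also adjoin the vein, so that they lie on the path of water, minerals and assimilates between the vascular tissue and the rest of the leaf.

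The values are FPKM, that is, fragments per length of transcript and per number of mapped fragments, brought here to the same upper quartile in all 12 libraries. FPKM is a level per length. The study's text says that the amplification favours the 3′ ends of transcripts, so levels of different genes, set beside each other below, depend on this bias as well, and its size was not tested. A gene is called BS-enriched or M-enriched where limma, fitted to log2(FPKM + 0.256) of all 32548 genes that reached 0.256 FPKM in the mean of some group, gave a Benjamini-Hochberg adjusted p under 0.01 for BS against M in the maturing section. The log2 values below are fitted log2 BS/M differences with their standard errors on that scale, on which the change of low genes is understated, and all p-values are adjusted ones from that fit, with n = 2 libraries for each cell type.

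In the maturing section 1570 genes were BS-enriched and 1159 were M-enriched, which is 4.82% and 3.56% of the genes tested. Among genes with a maturing group mean of 0.256 FPKM or more, they were 6.31% and 4.66%. The counts by gene list below are to be read beside these shares. Lists from the study's table hold genes that the study called on these samples, so higher shares are built into them. With FPKM as deposited, in place of the common upper quartile, 1758 were BS-enriched and 848 M-enriched, so that BS-enriched genes were 67.5% of the calls in place of 57.5%. Over 13595 genes averaging above 2.557 FPKM, the median log2 BS/M was -0.14 after the scaling and 0 before it. Single libraries also moved the counts by over 1.5 times, to 438 M-enriched genes without the first BS library, 855 BS-enriched and 750 M-enriched genes without the first M library, and 796 and 767 without the second. A fit of the 4 maturing libraries alone gave 198 and 169, of which 96 and 59 were among the genes called above. A fit with the replicate number as a block gave 666 and 195, of which 652 and 183 were. BS enrichment was the steeper of the pair. The median size of the difference was 2.59 among BS-enriched genes and 1.65 among M-enriched genes on the log2 scale, 617 BS-enriched and 72 M-enriched genes differed by 3 or more, and 152 BS-enriched and 13 M-enriched genes differed by 5 or more. By contrast, highly transcribed genes were about equally frequent, with 292 BS-enriched and 305 M-enriched genes averaging 100 FPKM or more, and 52 and 56 averaging 1000 FPKM or more in the cell type where they were enriched. Transcripts of many M-enriched genes were thus also plentiful in the BS libraries, and M transcripts carried over into BS captures and transcription in BS cells cannot be told apart. In captured tissue, fewer cells of a type and less RNA per cell cannot be told apart either.

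**Figure D1:**
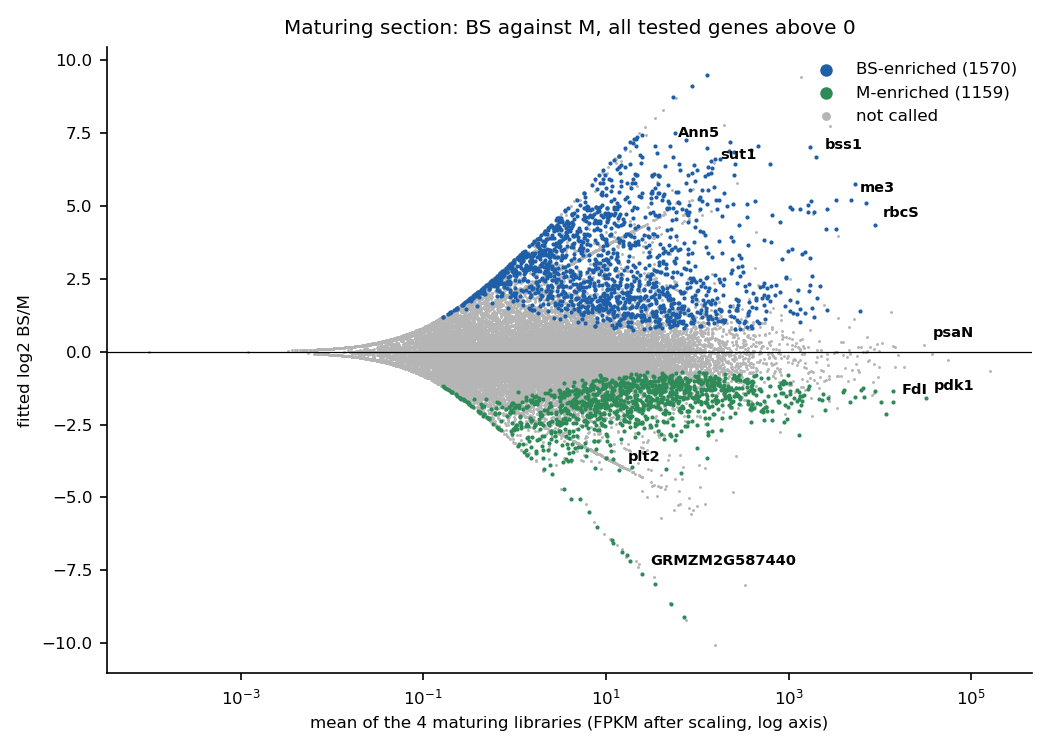
Each point is 1 tested gene above 0 in the maturing section, placed by its mean over the 4 libraries (FPKM after scaling, log axis) and its fitted log2 BS/M; blue points are the 1570 BS-enriched and green points the 1159 M-enriched genes, and grey points were not called. BS-enriched genes reach 9.47 and spread widely above 3 at every level, whereas all but 72 M-enriched genes lie between 0 and -3, and the few M-enriched genes at the bottom, such as GRMZM2G587440, are mostly genes of a few reads.

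The labelled cell types were set beside marker genes. The isomerase genes among them were assigned to a cell type by the study from these same samples, so they are no independent check. Summed over 6 BS markers (me3, PEPCK, ssu1, rca1, G2 and the isomerase GRMZM2G030784), the level was 21710 and 20368 FPKM in the BS libraries, against 850.3 and 785 FPKM in the M libraries. Over 6 M markers (pep1, pdk1, mdh6, carbonic anhydrase, GLK1 and the isomerase GRMZM5G852968) it was 17017 and 16305 FPKM in BS libraries, against 49518 and 52961 FPKM in M libraries. Most of these sums was pdk1, at 16098 and 15193 FPKM in BS libraries, against 45839 and 49102 FPKM in M libraries. All 6 M markers had fitted values below 0, and 5 were M-enriched. The 8 epidermis markers summed to 2.19 and 3.39 FPKM in BS libraries, against 13.1 and 12.3 FPKM in M libraries. Of the 4 phloem markers, sut1 made up nearly all of 290.3 and 283 FPKM in BS libraries, against 8.54 and 5.28 FPKM in M libraries, and 1 of the 4 was at 0 throughout. The summed xylem markers did not separate the cell types, with 39.6 and 33.1 FPKM in BS libraries, against 43.0 and 37.1 FPKM in M libraries. These sums rest on few genes, as 1 of the 4 xylem markers was at 0 throughout. Above 0 were 2 in each BS library, 1 in the first M library and 2 in the second. The read depth of the 4 maturing libraries, estimated from the step sizes of low values, lay between 1 and 1.025 times that of the first BS library, and that of the other 8 libraries between 0.279 and 0.527 times. Replicates correlated across genes at r = 0.91 for BS and 0.934 for M, and BS with M libraries at 0.841 to 0.875, as a description over 32548 genes that are not independent.

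Genes of the C4 cycle were divided 5 BS-enriched to 8 M-enriched among the 27 tested of 29 listed. On the BS side, me3 (GRMZM2G085019), the NADP-malic enzyme that decarboxylates malate, had 10044 and 8880.1 FPKM in BS cells, against 251 and 267 FPKM in M cells (log2 BS/M 5.19 ± 0.25, adjusted p = 1.7e-05). PEPCK (GRMZM2G001696), the phosphoenolpyruvate carboxykinase that releases CO2 from oxaloacetate, had 3731 and 3555 FPKM in BS cells, against 140.1 and 121 FPKM in M cells (log2 BS/M 4.80 ± 0.16, adjusted p = 7.35e-06). Both decarboxylases thus exceeded their M level more than any other C4 gene tested. The plastid dicarboxylate transporter pDCT2 (GRMZM2G086258) had 1284 and 1239 FPKM in BS cells, against 51.3 and 45.8 FPKM in M cells (log2 BS/M 4.70 ± 0.16, adjusted p = 7.35e-06). Its paralogue pDCT1 (GRMZM2G040933) was reversed, with 201 and 185 FPKM in BS cells, against 715 and 884 FPKM in M cells (log2 BS/M -2.05 ± 0.32, adjusted p = 0.00389). The paralogues were therefore separated between the cell types with no overlap in any library.

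On the M side, pdk1 (GRMZM2G306345), the C4 pyruvate orthophosphate dikinase (PPDK) that regenerates phosphoenolpyruvate, had 16098 and 15193 FPKM in BS cells, against 45839 and 49102 FPKM in M cells (log2 BS/M -1.60 ± 0.23, adjusted p = 0.00262). By FPKM it was the highest M-enriched gene of all, and its BS libraries still exceeded every other C4 gene. The fewest whole reads that fitted its values were 131 and 121 in BS and 326 and 349 in M libraries. For PPCK3, at 6.10 and 6.34 FPKM in BS libraries, they were 122 and 124 there. These are lowest estimates, checked only on values of up to 40 reads, so the read number of a high gene such as pdk1 may be larger. They cannot show whether ranks of genes by FPKM follow read numbers, which was not tested. The genes for the first steps followed the same direction: carbonic anhydrase (GRMZM2G348512) had 191 and 234 FPKM in BS cells, against 795 and 863 FPKM in M cells (log2 BS/M -1.97 ± 0.24, adjusted p = 0.00127), and pep1 (GRMZM2G083841), the C4 PEPC, had 20.8 and 23.7 FPKM in BS cells, against 117 and 149 FPKM in M cells (log2 BS/M -2.56 ± 0.27, adjusted p = 0.000604). The NADP-malate dehydrogenase mdh6 (GRMZM2G129513), which reduces oxaloacetate to malate, reached 432 and 528 FPKM in BS cells, against 1649 and 1628 FPKM in M cells (log2 BS/M -1.78 ± 0.28, adjusted p = 0.00392). Aspartate aminotransferase GRMZM5G836910 (-1.91) and pOMT1 (GRMZM2G383088, -2.41), which exchanges oxaloacetate and malate across the plastid envelope, were M-enriched by similar amounts. The PPDK regulatory protein gene pdrp1 (GRMZM2G131286), with 119 and 147 FPKM in BS cells, against 476 and 455 FPKM in M cells, missed the threshold (log2 BS/M -1.82 ± 0.41, adjusted p = 0.0192).

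In the PPDK and PEPC kinase families too, a BS-enriched member stood beside an M-enriched one. PPDK2 (GRMZM2G097457), the other PPDK gene, had 398 and 427 FPKM in BS cells, against 119 and 117 FPKM in M cells (log2 BS/M 1.80 ± 0.12, adjusted p = 7.03e-05). Among the PEPC kinases, which phosphorylate PEPC, PPCK3 (GRMZM2G096753) had 6.10 and 6.34 FPKM in BS cells, against 0.401 and 0.401 FPKM in M cells (log2 BS/M 3.30 ± 0.54, adjusted p = 0.00454) and PPCK1 (GRMZM2G178074) had 0.231 and 0.379 FPKM in BS cells, against 5.45 and 8.68 FPKM in M cells (log2 BS/M -3.68 ± 0.55, adjusted p = 0.00313). Both kinases were transcribed at low levels next to the enzymes they act on. None of the 3 alanine aminotransferase genes in the C4 list was called. GRMZM5G840582, at 217 and 196 FPKM in BS cells, against 90.5 and 97.3 FPKM in M cells, was the most abundant of the 3 (log2 BS/M 1.13 ± 0.33, adjusted p = 0.0521), and GRMZM2G088064 lay on the other side, at 6.89 and 10.5 FPKM in BS cells, against 26.3 and 20.1 FPKM in M cells (log2 BS/M -1.41 ± 0.35, adjusted p = 0.0299). A gene outside that list with the annotation of GRMZM5G840582, GRMZM2G120563, was BS-enriched, with 468 and 395 FPKM in BS cells, against 49.2 and 45.2 FPKM in M cells (log2 BS/M 3.18 ± 0.21, adjusted p = 6.28e-05).

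**Figure D2:**
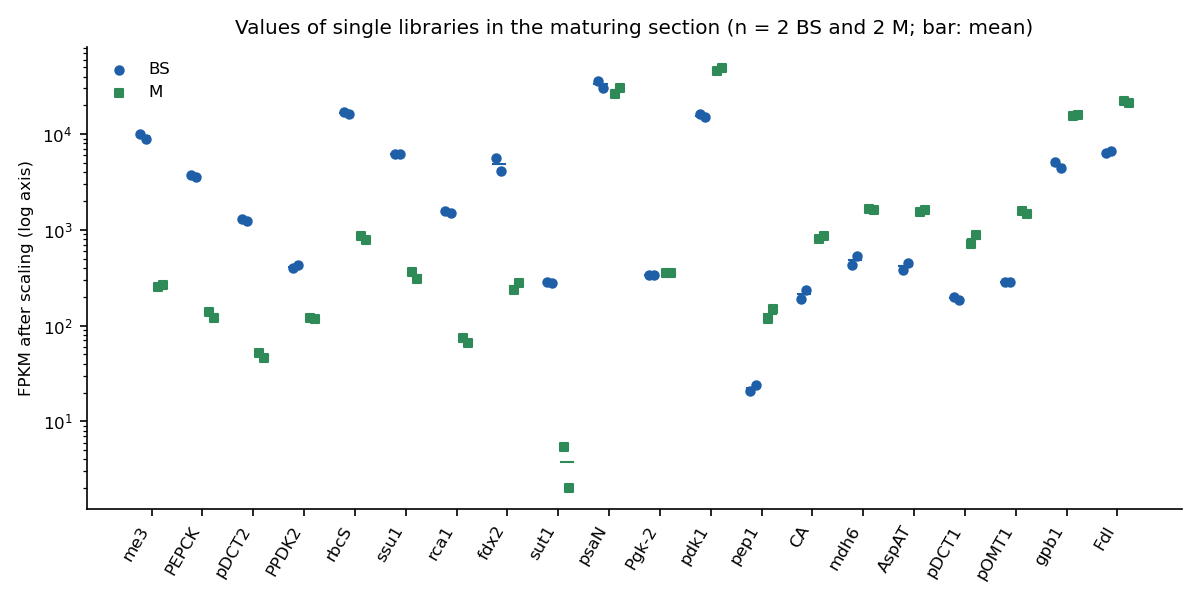
Each point is 1 library of the maturing section (FPKM after scaling, log axis), with the 2 BS libraries as blue circles to the left of the 2 M libraries as green squares for each gene, and short bars at the means. The 9 genes at the left lie higher in both BS libraries, psaN and Pgk-2 lie close together in both cell types, and the 9 genes at the right lie higher in both M libraries, with gaps that are narrower than those at the left except for PPDK2.

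Of 14 tested Calvin cycle genes (17 listed), 7 were BS-enriched and 2 were M-enriched. Their median log2 BS/M was 1.31, against 0.00 over all genes tested and -0.16 over those with a maturing group mean of 0.256 FPKM or more. The Rubisco small subunit genes rbcS (GRMZM2G113033) and ssu1 (GRMZM2G098520) had 17109.5 and 16224 FPKM in BS cells, against 864 and 786 FPKM in M cells (log2 BS/M 4.34 ± 0.24, adjusted p = 3.03e-05) and 6159 and 6245 FPKM in BS cells, against 359.7 and 308 FPKM in M cells (log2 BS/M 4.22 ± 0.23, adjusted p = 2.54e-05). The Rubisco activase genes, whose products remove inhibitory sugar phosphates from the enzyme, were enriched to the same degree. rca1 (GRMZM2G162200) had 1575 and 1495 FPKM in BS cells, against 73.6 and 65.6 FPKM in M cells (log2 BS/M 4.46 ± 0.18, adjusted p = 7.89e-06), and rca3 (GRMZM2G162282) was far less abundant, at 18.4 and 20.1 FPKM in BS cells, against 0.536 and 0.389 FPKM in M cells (4.77). The gene bsd2 (GRMZM2G062788), for a chaperone of Rubisco assembly, was not called, with 246 and 260.1 FPKM in BS cells, against 336 and 323 FPKM in M cells (log2 BS/M -0.38 ± 0.19, adjusted p = 0.255).

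The middle of the cycle, in which 3-phosphoglycerate is reduced to triose phosphate, did not follow the Rubisco genes. Of the plastid glyceraldehyde-3-phosphate dehydrogenase subunit genes, gpb1 (GRMZM5G845611) was M-enriched, at 5111 and 4438 FPKM in BS cells, against 15588 and 15679 FPKM in M cells (log2 BS/M -1.71 ± 0.19, adjusted p = 0.000756). The other, gpa1 (GRMZM2G337113), lay on the BS side but missed the threshold, at 5605 and 6207 FPKM in BS cells, against 3152 and 3452 FPKM in M cells (log2 BS/M 0.84 ± 0.24, adjusted p = 0.0475). Phosphoglycerate kinase Pgk-2 (GRMZM2G382914) was level, at 341 and 339 FPKM in BS cells, against 358 and 358 FPKM in M cells (log2 BS/M -0.08 ± 0.18, adjusted p = 0.928). Triosephosphate isomerase, which interconverts the 2 triose phosphates, had BS-enriched and M-enriched genes. GRMZM2G030784 had 98.0 and 103 FPKM in BS cells, against 5.20 and 3.38 FPKM in M cells (log2 BS/M 4.50 ± 0.31, adjusted p = 7.65e-05). The gene GRMZM2G018177 had 79.7 and 75.1 FPKM in BS cells, against 23.6 and 21.1 FPKM in M cells (1.78). GRMZM5G852968, the most abundant isomerase gene, had 231 and 280.0 FPKM in BS cells, against 1005 and 1083 FPKM in M cells (log2 BS/M -2.04 ± 0.36, adjusted p = 0.00624). The aldolase gene ald1 (GRMZM2G057823), whose enzyme joins triose phosphates to fructose bisphosphate, was BS-enriched at a lower level, 27.3 and 22.6 FPKM in BS cells, against 1.78 and 0.49 FPKM in M cells (log2 BS/M 4.35 ± 0.41, adjusted p = 0.000342).

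Photosystem genes divided less steeply than genes of carbon fixation. In photosystem II, which splits water, 3 of 10 listed genes were M-enriched and 1 was BS-enriched (median log2 BS/M -1.18), and with FPKM as deposited 1 was called in each direction, with lhcb7 the M-enriched one. The antenna gene lhcb7 (GRMZM2G402936), named as in RefSeq, had 2470.1 and 1985 FPKM in BS cells, against 6696 and 7846 FPKM in M cells (log2 BS/M -1.71 ± 0.24, adjusted p = 0.00211). The gene lhcb3 (GRMZM2G155216) had 1999 and 2671 FPKM in BS cells, against 5514 and 6136 FPKM in M cells (-1.33). The gene psb29 (GRMZM2G033885) reached 2798 and 2548 FPKM in BS cells, against 8088 and 7622 FPKM in M cells (log2 BS/M -1.56 ± 0.28, adjusted p = 0.00679). The antenna gene named lhcb4 (GRMZM2G103101) ran the other way, with 901 and 1022 FPKM in BS cells, against 291 and 284 FPKM in M cells (log2 BS/M 1.74 ± 0.17, adjusted p = 0.000436), and both its BS libraries were above both M libraries. Photosystem I, which reduces ferredoxin, had no BS-enriched gene among 8, and psaN (GRMZM2G080107) was among the highest transcripts of both cell types, at 35608 and 30582 FPKM in BS cells, against 25969.6 and 30399 FPKM in M cells (log2 BS/M 0.23 ± 0.26, adjusted p = 0.682). The 2 M-enriched genes of that list were the assembly genes PSA2 (GRMZM2G021687, -1.32) and PYG7 (GRMZM5G809292, -1.34), with 38.4 and 43.2 FPKM in BS cells, against 107 and 100.4 FPKM in M cells for PYG7.

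Ferredoxins, which carry electrons from photosystem I, and the ferredoxin-NADP reductases (FNR) that take them on, again had members of both directions. FdI (GRMZM2G122337) had 6377 and 6611 FPKM in BS cells, against 22025 and 21090.2 FPKM in M cells (log2 BS/M -1.73 ± 0.22, adjusted p = 0.00143). The gene fdx2 (GRMZM2G048313) had 5687 and 4101 FPKM in BS cells, against 238 and 281 FPKM in M cells (log2 BS/M 4.22 ± 0.34, adjusted p = 0.000175). Both were abundant in the cell type where they were enriched, and fdx3 (GRMZM2G053458) was a weaker BS-enriched member, at 117 and 114 FPKM in BS cells, against 54.1 and 59.9 FPKM in M cells (1.02). L-FNRII (GRMZM2G059083) had 52.4 and 62.0 FPKM in BS cells, against 215 and 213 FPKM in M cells (log2 BS/M -1.90 ± 0.24, adjusted p = 0.00128). The gene fnr1 (GRMZM2G058760) had 5.18 and 5.89 FPKM in BS cells, against 0.705 and 0.954 FPKM in M cells (log2 BS/M 2.42 ± 0.30, adjusted p = 0.00128), so that the BS-enriched reductase gene was the lower one. The gene for PGR5 (GRMZM2G017045), a protein of cyclic electron flow, was close to even, at 1253 and 985 FPKM in BS cells, against 1282 and 1585 FPKM in M cells (-0.36, adjusted p = 0.463).

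Photorespiration, the pathway that salvages the product of Rubisco's reaction with oxygen, had 3 BS-enriched and no M-enriched genes among 4 tested of 5 listed (median 2.42). They were go1 (GRMZM2G129246), a glycolate oxidase, with 255 and 278 FPKM in BS cells, against 43.7 and 41.7 FPKM in M cells (log2 BS/M 2.63 ± 0.16, adjusted p = 4.55e-05), cat1 (GRMZM2G088212), a catalase, with 52.9 and 52.4 FPKM in BS cells, against 11.2 and 11.3 FPKM in M cells (2.20), and BOU (GRMZM2G024823), a mitochondrial carrier, with 31.4 and 32.2 FPKM in BS cells, against 3.42 and 3.56 FPKM in M cells (3.10). Genes of glycine cleavage, in the study's table of differentially expressed genes rather than in that list, were also BS-enriched. The glycine decarboxylase P-protein gene GRMZM2G104310 had 132 and 173 FPKM in BS cells, against 5.74 and 5.59 FPKM in M cells (log2 BS/M 4.67 ± 0.23, adjusted p = 2e-05), and the aminomethyltransferase gene GRMZM5G876898 had 145 and 141 FPKM in BS cells, against 17.5 and 15.7 FPKM in M cells (log2 BS/M 3.09 ± 0.16, adjusted p = 2e-05). That table was drawn up by the study from these same samples, so its genes, here and below, are not independent evidence of a direction.

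Nitrogen assimilation had 3 BS-enriched and 5 M-enriched genes among 13 tested of 14 listed, and with FPKM as deposited 3 and 1, of which the M-enriched one was gln5. Genes of nitrate reduction were on the M side. NNR1 (GRMZM2G568636), a nitrate reductase, had 25.5 and 30.6 FPKM in BS cells, against 131 and 129.9 FPKM in M cells (log2 BS/M -2.21 ± 0.39, adjusted p = 0.0066), NIR (GRMZM2G079381), a nitrite reductase, had 35.0 and 35.4 FPKM in BS cells, against 107 and 102 FPKM in M cells (log2 BS/M -1.57 ± 0.28, adjusted p = 0.00731), and fgs1 (GRMZM2G036609), named for ferredoxin-dependent glutamate synthase, had 70.5 and 81.1 FPKM in BS cells, against 235.04 and 233 FPKM in M cells (-1.63). Glutamine synthetase genes, which build ammonium into glutamine, went in both directions. The BS-enriched ones were gln2 (GRMZM2G024104), at 105 and 69.4 FPKM in BS cells, against 1.79 and 0.268 FPKM in M cells (log2 BS/M 6.37 ± 0.71, adjusted p = 0.000799), gln3 (GRMZM2G046601), at 23.3 and 21.6 FPKM in BS cells, against 0.169 and 0.0846 FPKM in M cells (log2 BS/M 5.90 ± 0.38, adjusted p = 5.64e-05), and GLN6 (GRMZM2G050514), at 52.0 and 58.7 FPKM in BS cells, against 2.94 and 2.49 FPKM in M cells (4.23). The M-enriched one was gln5 (GRMZM2G036464), at 3.75 and 9.83 FPKM in BS cells, against 24.2 and 31.1 FPKM in M cells (log2 BS/M -2.12 ± 0.38, adjusted p = 0.00737). The most abundant of the family, gln1 (GRMZM2G098290), was not called, with 1237 and 1364 FPKM in BS cells, against 1604 and 1841 FPKM in M cells (-0.40). In sulfur assimilation, only sir (GRMZM2G090338), the sulfite reductase, was called among 7 tested genes, and it was BS-enriched at 145 and 142 FPKM in BS cells, against 16.4 and 11.7 FPKM in M cells (log2 BS/M 3.35 ± 0.21, adjusted p = 5.69e-05).

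**Figure D3:**
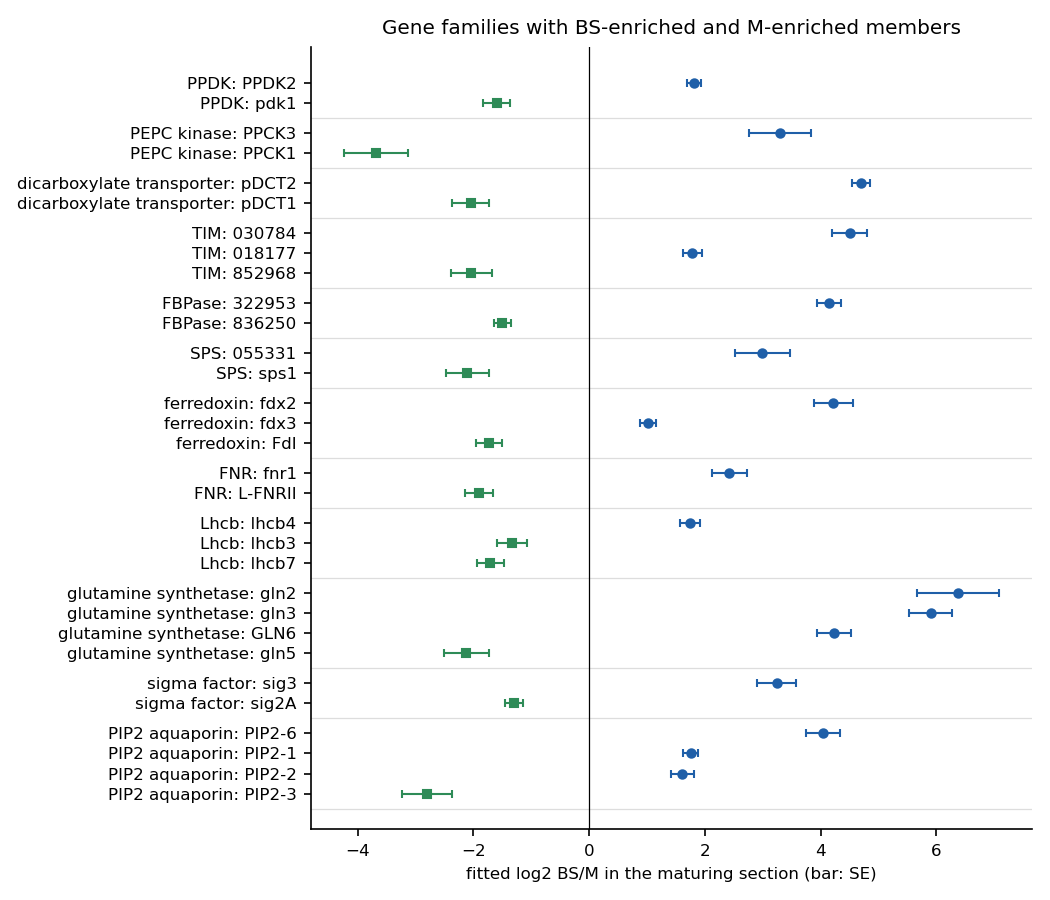
Each row is 1 gene of a family that held BS-enriched and M-enriched members; the point is its fitted log2 BS/M in the maturing section and the bar its standard error, with BS-enriched genes as blue circles and M-enriched genes as green squares. In every family shown at least 1 member lies to the right of 0 and 1 to the left, with the widest span between gln2 at 6.37 and gln5 at -2.12.

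The starch genes that were called were all BS-enriched. Of 18 starch synthesis genes that the study's table lists, 10 were BS-enriched (median log2 BS/M 1.55), and of 14 tested starch degradation genes 6 were BS-enriched and all 14 had fitted values above 0 (median 1.26). The large subunit of ADP-glucose pyrophosphorylase annotated as APL1 (GRMZM2G391936), whose enzyme makes the glucose donor, had 507 and 593 FPKM in BS cells, against 73.8 and 70.1 FPKM in M cells (log2 BS/M 2.93 ± 0.17, adjusted p = 3.49e-05). The starch synthase genes ss1 (GRMZM2G129451) and GBSSIIa (GRMZM2G008263) had 562 and 534 FPKM in BS cells, against 118 and 113 FPKM in M cells (2.24) and 473 and 524 FPKM in BS cells, against 80.1 and 85.2 FPKM in M cells (2.59). Every one of these values was higher in both BS libraries than in both M libraries. A gene annotated as chloroplast beta-amylase (GRMZM2G007939), which cuts starch to maltose, was the most abundant, with 2047 and 2098 FPKM in BS cells, against 492 and 462 FPKM in M cells (log2 BS/M 2.12 ± 0.22, adjusted p = 0.000577). The branching enzyme gene annotated SBE2.2 (GRMZM2G073054) had 107 and 120.1 FPKM in BS cells, against 10.9 and 8.85 FPKM in M cells (3.49). Of 19 starch genes taken by name from RefSeq, 13 were tested, and 6, including the endosperm genes wx1 and ae1, were too low in every group to be tested. In this list, which the study did not choose on these samples, 3 were BS-enriched, 0 were M-enriched and 10 were not called. Their median log2 BS/M was 0.22, with 9 fitted values above 0 and 4 below, a weaker lean than in the study's lists.

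In sucrose synthesis too, genes of the same enzyme went in opposite directions. One fructose-1,6-bisphosphatase gene, GRMZM5G836250, had 526 and 463 FPKM in BS cells, against 1385 and 1416 FPKM in M cells (log2 BS/M -1.51 ± 0.15, adjusted p = 0.000425). Another, GRMZM2G322953, had 234.8 and 176 FPKM in BS cells, against 13.1 and 9.63 FPKM in M cells (log2 BS/M 4.15 ± 0.21, adjusted p = 2.03e-05). Of the sucrose phosphate synthases, sps1 (GRMZM5G875238) had 97.4 and 95.7 FPKM in BS cells, against 419.7 and 412 FPKM in M cells (log2 BS/M -2.10 ± 0.38, adjusted p = 0.00722), while GRMZM2G055331 had 4.43 and 3.81 FPKM in BS cells, against 0.372 and 0.224 FPKM in M cells (2.99) at a much lower level. With FPKM as deposited, sps1 was not called. The sucrose transporter gene sut1 (GRMZM2G034302), known for loading sucrose into the phloem, had 288 and 282 FPKM in BS cells, against 5.45 and 2.01 FPKM in M cells (log2 BS/M 6.31 ± 0.54, adjusted p = 0.000225). As sut1 is also the leading phloem marker above, its transcripts from BS cells and from phloem cells caught with them cannot be told apart.

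Glycolysis leaned towards the BS, with 13 BS-enriched and 3 M-enriched genes among 43 tested of the study's table (median 1.29). A phosphoglucomutase gene, GRMZM2G067908, had 51.6 and 52.5 FPKM in BS cells, against 2.44 and 1.43 FPKM in M cells (log2 BS/M 4.62 ± 0.27, adjusted p = 3.82e-05), and a phosphoglycerate mutase gene, GRMZM2G051697, had 77.9 and 77.2 FPKM in BS cells, against 5.95 and 8.68 FPKM in M cells (3.39). Enolase eno2 (GRMZM2G048371), which makes phosphoenolpyruvate, had 55.4 and 48.8 FPKM in BS cells, against 6.71 and 6.05 FPKM in M cells (log2 BS/M 2.98 ± 0.18, adjusted p = 5.08e-05). Another phosphoglucomutase gene, GRMZM2G109383, was M-enriched, with 51.9 and 50.004 FPKM in BS cells, against 138 and 149 FPKM in M cells (log2 BS/M -1.49 ± 0.17, adjusted p = 0.000821), beside the isomerase GRMZM5G852968 and a plastid pyruvate kinase gene, GRMZM2G144730 (-1.33).

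**Figure D4:**
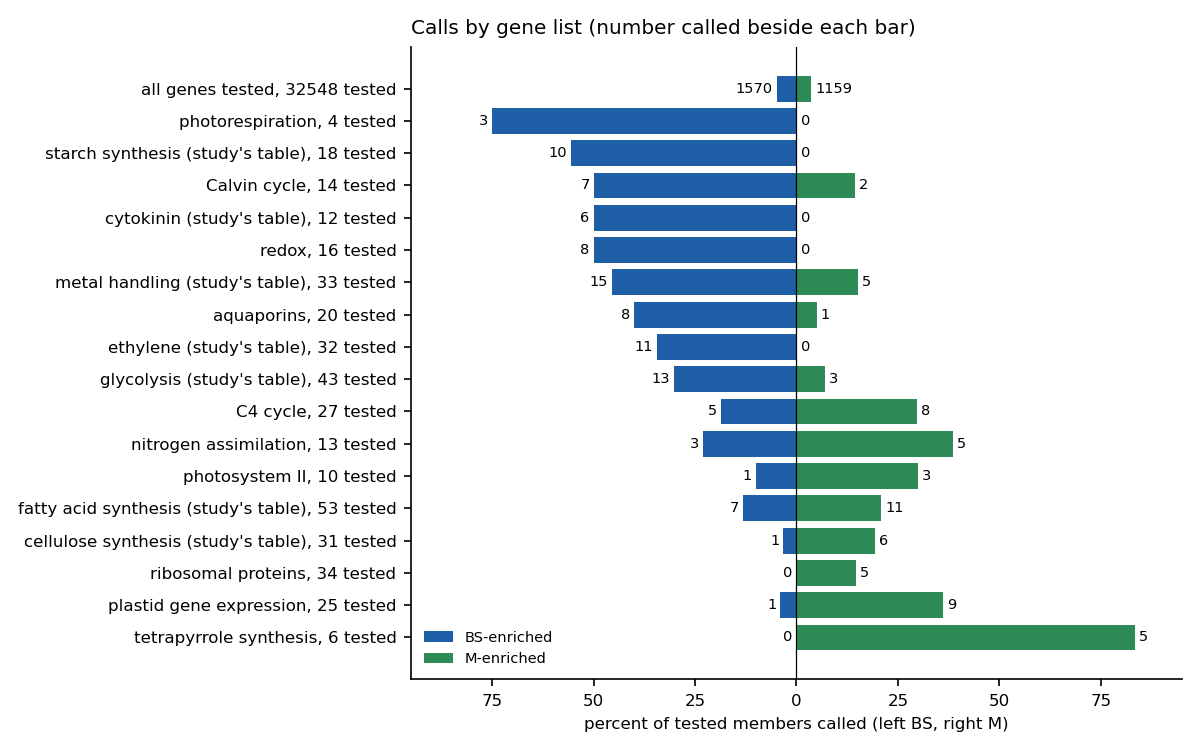
For each gene list, the blue bar to the left is the percent of its tested members that were BS-enriched and the green bar to the right the percent that were M-enriched, with the number of genes beside each bar; the top bars are all 32548 genes tested. The starch synthesis, cytokinin and redox lists have at least 6 BS-enriched and no M-enriched members, and the plastid gene expression and tetrapyrrole lists have 9 and 5 M-enriched members beside 1 and 0 BS-enriched ones. Lists marked as the study's table hold genes that the study called on these samples, so their shares and the top bars are not like for like.

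Aquaporins, the membrane channels for water and small neutral solutes, were BS-enriched in 8 of 20 tested genes of 24 listed, and M-enriched in 1 (median 1.48). These are 40% and 5%, beside 4.82% and 3.56% of all genes tested, so the M share was near that of all genes. NIP2-1 (GRMZM2G028325) had 281 and 348 FPKM in BS cells, against 11.9 and 8.83 FPKM in M cells (log2 BS/M 4.89 ± 0.25, adjusted p = 2e-05), and PIP2-6 (GRMZM2G047368) had 34.1 and 32.1 FPKM in BS cells, against 1.46 and 2.14 FPKM in M cells (log2 BS/M 4.04 ± 0.30, adjusted p = 0.000113). The most abundant of the 8 were the tonoplast channel gene TIP2-1 (GRMZM2G027098), with 877 and 747 FPKM in BS cells, against 321 and 294 FPKM in M cells (1.40), and PIP2-2 (GRMZM2G092125), with 476 and 374 FPKM in BS cells, against 145 and 132 FPKM in M cells (1.61). These had weaker differences than NIP2-1. The exception was PIP2-3 (GRMZM2G081192), with 0.797 and 0.779 FPKM in BS cells, against 6.58 and 7.51 FPKM in M cells (log2 BS/M -2.80 ± 0.43, adjusted p = 0.0035), a low transcript in either cell type.

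Genes for handling metals and for redox balance were called more often on the BS side. Of 33 tested metal handling genes in the study's table, 15 were BS-enriched and 5 M-enriched (median 1.26). Among them were a pair of nicotianamine synthase genes, whose product chelates iron and other metals for transport. GRMZM2G478568 had 331 and 224 FPKM in BS cells, against 5.30 and 2.47 FPKM in M cells (log2 BS/M 6.13 ± 0.84, adjusted p = 0.00204). The gene GRMZM2G439195 had 40.4 and 35.1 FPKM in BS cells, against 0.483 and 0.372 FPKM in M cells (log2 BS/M 5.80 ± 0.43, adjusted p = 0.000114). The M-enriched ones included the metallothionein gene GRMZM2G161154, which binds metals through cysteines, with 173 and 183 FPKM in BS cells, against 943 and 877 FPKM in M cells (log2 BS/M -2.35 ± 0.19, adjusted p = 0.000164), and the ferric reductase gene GRMZM2G068557 (annotated FRO7), with 29.7 and 33.2 FPKM in BS cells, against 251 and 213 FPKM in M cells (-2.87). Iron handling thus had abundant genes on both sides. Among 16 redox genes, 8 were BS-enriched and none M-enriched (median 1.07). Thioredoxin h gene trxh1 (GRMZM2G424053) had 545 and 441 FPKM in BS cells, against 9.996 and 5.16 FPKM in M cells (log2 BS/M 6.04 ± 0.36, adjusted p = 4.45e-05), the glutaredoxin grx1 (GRMZM2G150295) had 155 and 158 FPKM in BS cells, against 27.9 and 28.3 FPKM in M cells (2.47), and the superoxide dismutase Sod4A (GRMZM2G058522) had 179.6 and 187 FPKM in BS cells, against 40.5 and 35.7 FPKM in M cells (2.26).

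Lists of pigment synthesis and plastid gene expression had more M-enriched than BS-enriched members. All 6 tetrapyrrole genes had fitted values below 0 and 5 of them were M-enriched (median -1.06). The oy1 gene (GRMZM2G419806), for a subunit of the magnesium chelatase that starts chlorophyll synthesis, had 136 and 144 FPKM in BS cells, against 253 and 268 FPKM in M cells (log2 BS/M -0.89 ± 0.12, adjusted p = 0.00187). The gene elm1 (GRMZM5G861678), which makes the phytochrome chromophore, had 31.5 and 25.8 FPKM in BS cells, against 94.6 and 80.5 FPKM in M cells (log2 BS/M -1.60 ± 0.21, adjusted p = 0.00152). These were small differences, and with FPKM as deposited 2 of the 5 calls were left. All 13 carotenoid genes were also below 0, 10 of them with FPKM as deposited, but 2 were called, and 1 with FPKM as deposited. The gene psy2 (GRMZM2G149317), a phytoene synthase, was M-enriched with 22.2 and 22.5 FPKM in BS cells, against 69.1 and 71.8 FPKM in M cells (log2 BS/M -1.64 ± 0.23, adjusted p = 0.0022). Of 25 tested genes of plastid gene expression, 9 were M-enriched and 1 BS-enriched (median -0.89). The sigma factors, which direct the plastid's bacterial-type polymerase, parted: sig2A (GRMZM2G143392) had 34.7 and 39.0 FPKM in BS cells, against 98.3 and 83.9 FPKM in M cells (log2 BS/M -1.30 ± 0.16, adjusted p = 0.00119). The gene sig3 (GRMZM5G830932) had 20.7 and 21.3 FPKM in BS cells, against 2.14 and 1.86 FPKM in M cells (log2 BS/M 3.24 ± 0.34, adjusted p = 0.000624). The plastid intron splicing factor CFM3 (GRMZM2G436001) was M-enriched, at 25.02 and 30.02 FPKM in BS cells, against 76.9 and 70.1 FPKM in M cells (-1.41). Among 34 genes of ribosomal proteins, 5 were M-enriched and none BS-enriched, with differences between -1.31 for rpl19 (GRMZM2G171444) and -0.84 for arpp3 (GRMZM2G077208), and 3 of the 5 were called with FPKM as deposited.

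Of 245 tested transcription factor genes in the families listed, 25 (10.2%) were BS-enriched and 9 (3.67%) M-enriched, beside 4.82% and 3.56% of all genes. Over genes with a maturing group mean of 0.256 FPKM or more, the shares were 6.31% and 4.66%. G2 (GRMZM2G087804), the golden2 regulator of BS chloroplasts, had 103 and 90.6 FPKM in BS cells, against 20.5 and 19.0 FPKM in M cells (log2 BS/M 2.28 ± 0.22, adjusted p = 0.000413). Its partner GLK1 (GRMZM2G026833), which acts in M cells, had 44.1 and 47.0 FPKM in BS cells, against 113 and 137 FPKM in M cells and missed the threshold (log2 BS/M -1.44 ± 0.37, adjusted p = 0.0334), as did SCR (GRMZM2G131516), a maize scarecrow gene, with 13.0 and 11.1 FPKM in BS cells, against 6.29 and 9.54 FPKM in M cells (0.62). The largest BS differences were in MYB-type genes. MYBR47 (GRMZM2G117497) had 47.0 and 51.0 FPKM in BS cells, against 0.227 and 0.227 FPKM in M cells (log2 BS/M 6.67 ± 0.68, adjusted p = 0.000514), MYBR87 (GRMZM2G158117) had 43.2 and 40.1 FPKM in BS cells, against 0.584 and 0.438 FPKM in M cells (log2 BS/M 5.78 ± 0.49, adjusted p = 0.000209), and MYB59 (GRMZM2G130149), the most abundant of them, had 343 and 415 FPKM in BS cells, against 10.04 and 7.12 FPKM in M cells (log2 BS/M 5.44 ± 0.20, adjusted p = 7.35e-06). The M values of MYBR47 and MYBR87 were under 1 FPKM. DOF22 (GRMZM2G171852) followed at 13.0 and 15.9 FPKM in BS cells, against 0.177 and 0.455 FPKM in M cells (4.72).

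On the M side, the largest difference was that of bZIP61 (GRMZM2G137046), with 12.8 and 11.5 FPKM in BS cells, against 113 and 89.8 FPKM in M cells (log2 BS/M -3.03 ± 0.33, adjusted p = 0.000728). The TIFY genes, a family that includes the repressors of jasmonate signalling, had 4 M-enriched and no BS-enriched members among 19 tested (median -0.31). TIFY25 (GRMZM2G116614) had 7.21 and 10.9 FPKM in BS cells, against 37.2 and 36.7 FPKM in M cells (log2 BS/M -2.03 ± 0.24, adjusted p = 0.000961). TIFY24 (GRMZM2G126507), a more abundant one, had 83.4 and 104 FPKM in BS cells, against 199 and 192 FPKM in M cells (-1.06). TCP genes ran the other way, with 3 BS-enriched of 7 tested, among them TCP7 (GRMZM2G035944), at 15.5 and 23.4 FPKM in BS cells, against 1.34 and 1.20 FPKM in M cells (3.67).

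Hormone genes of the study's table were more often BS-enriched than M-enriched in every group but salicylic acid. BS-enriched and M-enriched were 6 and 0 of 12 cytokinin genes and 11 and 0 of 32 ethylene genes. They were 7 and 1 of 26 abscisic acid genes and 9 and 4 of 59 auxin genes. Over all genes tested the shares were 4.82% and 3.56%. That table holds genes the study called on these samples, so higher shares are built in. In cytokinin signalling, the phosphotransmitter gene GRMZM2G124890 (annotated AHP4) had 48.8 and 36.0 FPKM in BS cells, against 0.902 and 0.0949 FPKM in M cells (log2 BS/M 6.05 ± 0.70, adjusted p = 0.000939), and the type-A response regulator RR6 (GRMZM2G129954) had 45.7 and 33.0 FPKM in BS cells, against 1.98 and 1.68 FPKM in M cells (log2 BS/M 4.23 ± 0.71, adjusted p = 0.00503). The receptor gene HK1b2 (GRMZM5G833140) differed less, with 25.4 and 24.7 FPKM in BS cells, against 12.2 and 12.5 FPKM in M cells (1.01). In ethylene synthesis, the gene annotated as the ethylene-forming enzyme (GRMZM2G007249) had 18.8 and 16.2 FPKM in BS cells, against 0.123 and 0.204 FPKM in M cells (log2 BS/M 5.41 ± 0.27, adjusted p = 2e-05). Among auxin genes the efflux carrier gene PIN10a (GRMZM2G126260) was M-enriched at a low level, with 0.0519 and 0 FPKM in BS cells, against 2.79 and 2.55 FPKM in M cells (log2 BS/M -3.38 ± 0.28, adjusted p = 0.000191), and was near or at 0 in BS cells. The jasmonate genes were mixed, with 3 BS-enriched and 1 M-enriched of 15. Brassinosteroid genes had 3 and 2 of 14, gibberellin genes 1 and 0 of 11, and salicylic acid genes 0 and 2 of 5. The median log2 BS/M was 1.26 for cytokinin, 0.74 for ethylene, 0.63 for abscisic acid and 0.23 for auxin genes. It lay below 0 for jasmonate (-0.09), gibberellin (-0.09), brassinosteroid (-0.36) and salicylic acid genes (-1.28).

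Amino acid synthesis had 16 BS-enriched and 17 M-enriched genes among 115 tested of the study's table (19 and 12 with FPKM as deposited), whereas amino acid degradation had 12 BS-enriched and 4 M-enriched genes among 45. Serine synthesis from glycolytic intermediates had BS-enriched members such as the phosphoserine phosphatase gene GRMZM2G165383, with 96.7 and 91.3 FPKM in BS cells, against 6.33 and 5.44 FPKM in M cells (log2 BS/M 3.94 ± 0.33, adjusted p = 0.000194). Methionine use was represented by the S-adenosylmethionine synthetase gene GRMZM2G117198, with 258 and 218 FPKM in BS cells, against 22.6 and 22.7 FPKM in M cells (log2 BS/M 3.37 ± 0.18, adjusted p = 2.54e-05). The bx1 gene (GRMZM2G085381), whose enzyme makes the indole from which the benzoxazinoid defence compounds of maize are built, had 725 and 1009.5 FPKM in BS cells, against 161 and 196 FPKM in M cells (log2 BS/M 2.26 ± 0.43, adjusted p = 0.00916). The related TSA gene (GRMZM5G841619), a tryptophan synthase alpha subunit, lay on the M side, with 12.5 and 14.3 FPKM in BS cells, against 30.5 and 33.1 FPKM in M cells (log2 BS/M -1.23 ± 0.15, adjusted p = 0.00105). Acetolactate synthase, the first enzyme of branched-chain amino acid synthesis, had 1 gene on each side, AHAS109 (GRMZM2G143357) at 1.68 and 1.57 FPKM in BS cells, against 0.32 and 0.288 FPKM in M cells (1.75) and AHAS108 (GRMZM2G143008) at 4.92 and 3.79 FPKM in BS cells, against 15.1 and 17.3 FPKM in M cells (-1.84).

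Several lipid, wall and cytoskeleton genes were M-enriched. All 3 called lipid transfer genes of 5 tested were M-enriched: plt2 (GRMZM2G010868) had 1.47 and 1.27 FPKM in BS cells, against 27.0 and 26.0 FPKM in M cells (log2 BS/M -4.04 ± 0.25, adjusted p = 5.35e-05), plt1 (GRMZM2G101958) had 1.97 and 1.88 FPKM in BS cells, against 21.6 and 18.5 FPKM in M cells (-3.21), and GRMZM2G107839, annotated LTP3, had 1.29 and 2.02 FPKM in BS cells, against 13.6 and 28.8 FPKM in M cells (-3.42). In fatty acid synthesis, 11 of 53 genes were M-enriched and 7 BS-enriched (median -0.85), and with FPKM as deposited 8 in each direction. The M-enriched ones included genes of very long chains, such as GRMZM2G097469, annotated KCS2, with 0.314 and 0.427 FPKM in BS cells, against 8.49 and 7.41 FPKM in M cells (log2 BS/M -3.72 ± 0.29, adjusted p = 0.000133), and the BS-enriched ones included acyl carrier proteins, such as GRMZM2G122324, annotated ACP4, with 192 and 180.1 FPKM in BS cells, against 58.1 and 58.9 FPKM in M cells (log2 BS/M 1.66 ± 0.11, adjusted p = 5.63e-05). Beside these stand the epidermis markers, which summed to 2.19 and 3.39 FPKM in BS libraries, against 13.1 and 12.3 FPKM in M libraries; all 6 that were tested had fitted values below 0, 1 of them, ocl3 (GRMZM2G116658), was M-enriched, and none of the 8 was at 0 in all 4 libraries. Their part in the M enrichment of the lipid and wall genes was not tested.

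Cellulose synthesis had 6 M-enriched and 1 BS-enriched genes among 31 tested of the study's table (median -1.51), and wall-degrading enzymes 6 and 1 among 26. The M shares were 19.4% and 23.1%, beside 3.56% of all genes tested. The BS shares, 3.23% and 3.85%, were near the 4.82% of all genes. CesA-7 (GRMZM2G025231) had 1.13 and 1.61 FPKM in BS cells, against 6.68 and 5.98 FPKM in M cells (log2 BS/M -2.03 ± 0.32, adjusted p = 0.00416). An expansin gene, GRMZM2G082520, annotated EXPB2, was listed at 0 in both BS libraries and had 8.64 and 8.04 FPKM in M cells (adjusted p = 0.00162). The other expansin called, EXPA5 (GRMZM2G361064), which loosens walls as they extend, had 4.93 and 4.90 FPKM in BS cells, against 32.4 and 21.3 FPKM in M cells (-2.36). Of 122 cell organisation genes 13 were called in each direction, and with FPKM as deposited 15 were BS-enriched and 9 M-enriched. The alpha-tubulin gene tua4 (GRMZM2G152466) had 8.63 and 10.5 FPKM in BS cells, against 76.1 and 54.1 FPKM in M cells (log2 BS/M -2.72 ± 0.21, adjusted p = 0.000135), and an actin gene, GRMZM2G047055, had 55.4 and 56.5 FPKM in BS cells, against 255 and 244 FPKM in M cells (log2 BS/M -2.15 ± 0.18, adjusted p = 0.000205). Among the BS-enriched ones were genes of actin-binding proteins, the depolymerizing factor gene GRMZM2G037140 at 552 and 499 FPKM in BS cells, against 51.5 and 54.0 FPKM in M cells (log2 BS/M 3.31 ± 0.30, adjusted p = 0.000307) and the profilin PRO4 (GRMZM2G108780) at 898 and 797 FPKM in BS cells, against 229.6 and 211 FPKM in M cells (1.94). Of 31 histone genes in the study's table, 4 were BS-enriched and 2 M-enriched (6 and 0 with FPKM as deposited). The largest difference was that of GRMZM2G069911, annotated HIS1-3, at 88.4 and 85.1 FPKM in BS cells, against 8.02 and 8.15 FPKM in M cells (log2 BS/M 3.38 ± 0.23, adjusted p = 7.35e-05).

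Among annotated genes averaging 10 FPKM or more, the largest BS difference was that of the annexin gene Ann5 (GRMZM2G172834), a calcium-dependent membrane-binding protein, with 113 and 86.2 FPKM in BS cells, against 0.67 and 0.335 FPKM in M cells (log2 BS/M 7.06 ± 0.50, adjusted p = 9.04e-05). The gene named bss1 (GRMZM2G168552) was far more abundant, with 4141 and 3743 FPKM in BS cells, against 63.8 and 23.1 FPKM in M cells (log2 BS/M 6.67 ± 0.57, adjusted p = 0.000228), followed by 1 named LOL3 (GRMZM2G120079), with 316 and 237 FPKM in BS cells, against 5.64 and 1.25 FPKM in M cells (6.52), and, with other genes between, the beta-glucosidase gene glu2 (GRMZM2G008247), with 246 and 265 FPKM in BS cells, against 5.15 and 2.36 FPKM in M cells (6.09). The M libraries of bss1, LOL3 and glu2 differed from each other by a larger ratio than their BS libraries did. On the M side, plt2 was followed by the other lipid transfer genes. Further down, with other genes between, were the squalene monooxygenase gene GRMZM2G091456 of sterol synthesis, with 2.9995 and 3.12 FPKM in BS cells, against 23.7 and 28.9 FPKM in M cells (log2 BS/M -3.00 ± 0.31, adjusted p = 0.000548), and rf2c (GRMZM2G071021), an aldehyde dehydrogenase, with 14.5 and 13.6 FPKM in BS cells, against 101 and 106 FPKM in M cells (log2 BS/M -2.86 ± 0.12, adjusted p = 1.17e-05). To reach 15 annotated genes in each direction, 61 BS-enriched and 41 M-enriched genes without annotation had to be passed over, so that most of the steepest genes had no name. Several of the highest transcripts had none either. GRMZM2G162529 had 13067 and 14181 FPKM in BS cells, against 422 and 367 FPKM in M cells (log2 BS/M 5.11 ± 0.20, adjusted p = 7.83e-06), and GRMZM2G137147 had 6587 and 6354 FPKM in BS cells, against 186 and 166 FPKM in M cells (log2 BS/M 5.20 ± 0.32, adjusted p = 4.76e-05). These BS-enriched levels were close to those of me3 and the Rubisco small subunit genes.

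Some of the steepest calls rest on very few reads. Low FPKM values move in steps of the size of 1 read, and a fewest-reads estimate could be fitted to 90.7% of the genes above 0. None was found for 265 of the 1570 BS-enriched and 425 of the 1159 M-enriched genes. By this estimate, 75 BS-enriched and 47 M-enriched genes had under 10 reads in both libraries on the enriched side, nearly all of them listed at 0 in the other cell type (73 and 44) and 1 of them annotated. They made up 13 of the 152 BS-enriched and 9 of the 13 M-enriched genes that differed by 5 or more. GRMZM2G587440, for instance, was listed at 0 in both BS libraries and at 49.9 and 49.9 FPKM in M libraries, which fitted 1 read each. When the genes of few reads were left out, an alternative chosen after the data were seen, 1801 genes were BS-enriched and 1479 M-enriched among 21094 tested.

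The maturing section was set against the younger SST section and the older mature section by testing the change of log2 BS/M between them. Of the BS-enriched genes, 410 were also BS-enriched at SST, 590 at mature and 263 at all 3 stages, and of the M-enriched genes 268, 217 and 100. The other sections gave 535 BS-enriched and 468 M-enriched genes at SST and 1190 and 673 at mature, in libraries of less than 0.53 times the depth, and the part of depth in these counts was not tested. A change of log2 BS/M passed the threshold in 100 genes between SST and maturing (0.307% of genes tested) and in 304 genes between maturing and mature (0.934%). Both tests share the 4 maturing libraries. Without 1 of these libraries they were 487 to 1519 genes (fewest without the first M library, most without the second BS library) and 576 to 1741 genes in the same order. Among them were 51 BS-enriched and 25 M-enriched genes whose difference was larger at maturing than at SST, against 2 and 1 for which it was smaller, and 123 and 51 whose difference was larger at maturing than at mature, against 3 and 0. These genes were called at maturing, which favours a larger value there, so the counts are a description.

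For PIP1-5 (GRMZM2G081843), an aquaporin, the log2 BS/M was -1.29 in the SST section, 1.78 in the maturing and 1.22 in the mature section, so that it was M-enriched in the youngest section, and the change between SST and maturing was 3.07 ± 0.20 (adjusted p = 0.000317). PIP2-1 (GRMZM2G014914) had -0.15, 1.75 and -0.18 at the 3 stages, and both changes were called (1.90 ± 0.17, adjusted p = 0.00289, for maturing over SST, and 1.93 ± 0.17, adjusted p = 0.00171, for maturing over mature). BS enrichment of this water channel was thus seen in the maturing section and in neither neighbour. For MYB59 the values were 2.87, 5.44 and 4.85, with a called change from SST (2.57 ± 0.29, adjusted p = 0.00677), and for MYBR87 (GRMZM2G158117) 0.00, 5.78 and 2.94 (5.78 ± 0.69, adjusted p = 0.00973). On this scale a gene absent from both cell types also has a log2 BS/M of 0.00. Gained bias and gained transcript therefore cannot be told apart for MYBR87 from these values. On the M side, plt2 and tua4 differed little at SST: plt2 had -0.95, -4.04 and -1.79 (-3.09 ± 0.36, adjusted p = 0.00847), and tua4 had 0.11, -2.72 and -0.63 (-2.83 ± 0.30, adjusted p = 0.00549).

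Between maturing and mature, BS enrichment was lost or reduced in several named genes. The fructose-1,6-bisphosphatase gene GRMZM2G322953 had log2 BS/M of 3.41 at SST, 4.15 at maturing and 0.57 at mature, a called difference of 3.58 ± 0.30 (adjusted p = 0.00112) for maturing minus mature. For gln3 the values were 3.81, 5.90 and 0.66 (5.24 ± 0.53, adjusted p = 0.00236), and for trxh1 3.60, 6.04 and 1.94 (4.10 ± 0.52, adjusted p = 0.00672). These were BS-enriched in the younger sections and nearer to even in the mature one. For gln3 the mature means were only 0.576 FPKM in BS and 0.240 FPKM in M cells, against 25.2 and 1.58 FPKM at SST. At such levels the added 0.256 FPKM keeps log2 BS/M small, so lost bias and lost transcript cannot be told apart for gln3. MYBR32 (GRMZM2G088524), a MYB-related gene with 109 and 81.9 FPKM in BS cells, against 9.09 and 7.31 FPKM in M cells at maturing, had 1.34, 3.49 and 0.14 (3.35 ± 0.31, adjusted p = 0.00177). The xyloglucan-modifying gene GRMZM2G113761, annotated XTR8, changed side, with -0.52, 1.98 and -2.05 (4.03 ± 0.39, adjusted p = 0.00198). The unannotated GRMZM2G542538, one of the highest BS transcripts at maturing with 12262 and 8593 FPKM in BS cells, against 224 and 161 FPKM in M cells, had 2.90, 5.75 and -3.96 (9.72 ± 0.89, adjusted p = 0.00171). The opposite course was taken by the acyl carrier protein gene GRMZM2G149580, annotated ACP2, whose BS enrichment was -0.17, 0.78 and 2.96, larger at mature than at maturing (-2.18 ± 0.20, adjusted p = 0.00169).

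**Figure D5:**
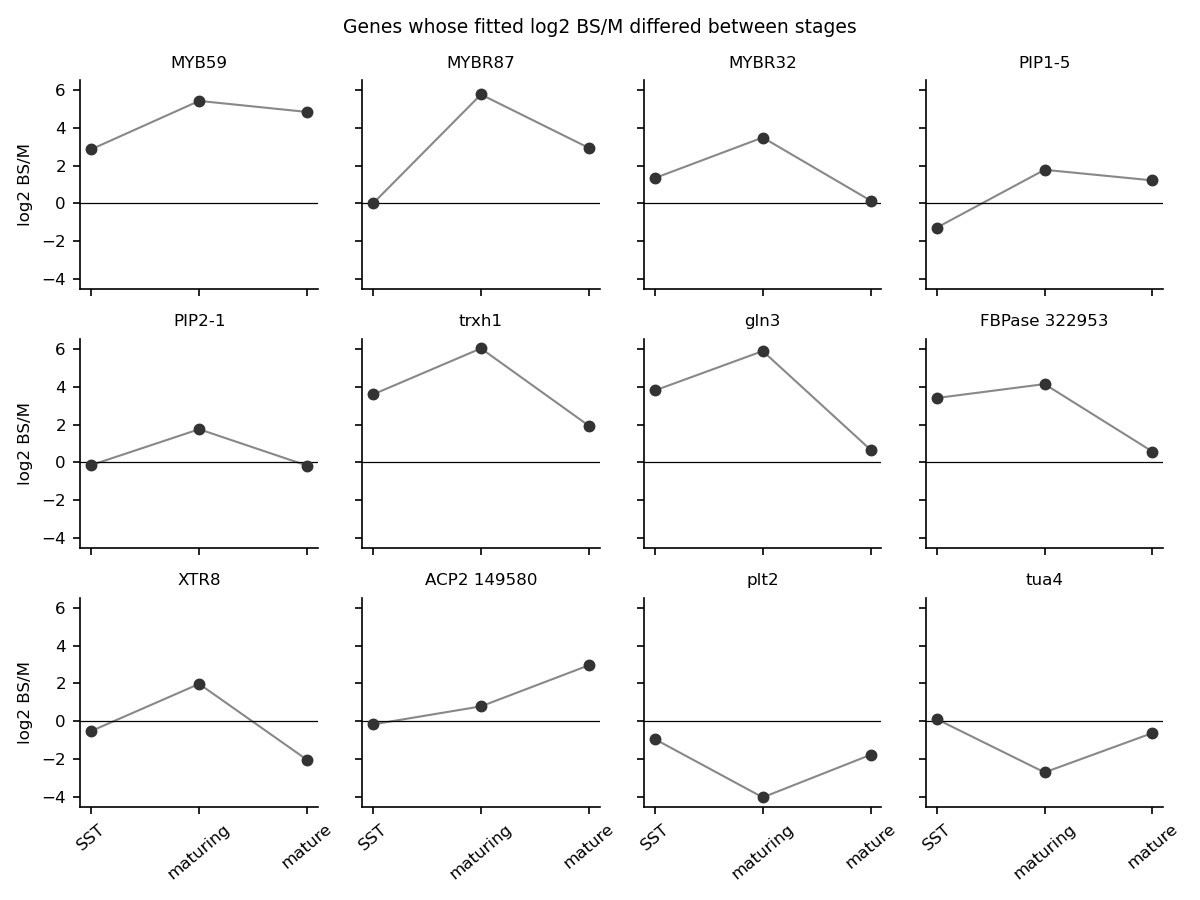
Each panel is 1 gene, with its fitted log2 BS/M at SST, maturing and mature, joined by a line; values above 0 are higher in BS cells. MYB59, MYBR87, PIP1-5, PIP2-1, plt2 and tua4 differed between SST and maturing, and MYBR32, PIP2-1, trxh1, gln3, the fructose-1,6-bisphosphatase gene, XTR8 and ACP2 between maturing and mature.

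No change of log2 BS/M between the stages was called for any of the 27 C4 genes tested. In the order SST, maturing, mature, the log2 BS/M of me3 was 2.94, 5.19 and 3.39, and that of PEPCK was 2.98, 4.80 and 3.41. Both were steepest at maturing, with differences that missed the threshold (adjusted p = 0.0225 and 0.032 for me3 (GRMZM2G085019), 0.0116 and 0.0174 for PEPCK (GRMZM2G001696)). For pdk1 (GRMZM2G306345) the values were -1.48, -1.60 and -1.20, so that its M enrichment was about the same size in the 3 sections, with differences of -0.12 ± 0.33 and -0.40 ± 0.33.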

How the data were processed

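The authors deposited 1 table of FPKM per gene and library, for the gene models of the maize line B73, although the plants were Mo17. The submitters' processing notes name CASAVA 1.3, TopHat, TopHat2 2.0.10 and Cuffdiff 2.1.1 with the build B73 RefGen_v3, and the paper names assembly v2. Reads of Mo17 that differ from B73, and paralogues sharing reads, may be undercounted. No coordinates were used, and promoter, protein and other sequences were not analysed here. The 12 libraries were scaled to a common upper quartile (2.557 FPKM), a pseudocount of 0.256 FPKM was added, and limma 3.58.1 in R 4.3.3 was fitted with trend to 32548 genes in all 12 libraries (6 groups, 6 residual degrees of freedom). Contrasts were BS against M in the maturing section and its change against the SST and the mature section, with two-sided p-values adjusted by Benjamini-Hochberg. As no source says that replicates came from separate plants, p-values measure the spread between these libraries, which may be technical. Depth is known only in relative terms, from the steps of low values. Genes were grouped by RefSeq name or by the categories of the study's table. The rule for naming took annotated genes of largest difference among those of 10 FPKM or more (15 in each direction), the 10 highest called genes in each direction, genes the study's text gives, called members of each list (described for the 4 of largest difference in each direction), even members above 20 FPKM, and the 10 largest changes between stages. A part of these is named in the text, together with some list members outside the rule that were chosen after their values were seen. The comparison and its lists were chosen with earlier results of these data known. Results on some genes are not reported here. The scripts were tested on simulated data. Alternatives are given in the closing section.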

Additional observations from a re-analysis of the deposited data

Results flagged for a closer look

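The genes below are those named in the text whose BS/M difference changed between stages by the test of the change itself, with limma across all genes. Both tests share the 4 maturing libraries. Against the SST section, the log2 BS/M was higher at maturing by 3.07 for PIP1-5 (GRMZM2G081843), 1.90 for PIP2-1 (GRMZM2G014914), 2.57 for MYB59 (GRMZM2G130149), 5.78 for MYBR87 (GRMZM2G158117) and 2.96 for the histone H1 gene GRMZM2G069911. It changed by -3.09 for plt2 (GRMZM2G010868) and by -2.83 for tua4 (GRMZM2G152466), which were the more M-enriched at maturing. For HIS1-3 (GRMZM2G069911) the log2 BS/M was 0.42 at SST, 3.38 in the maturing and 2.59 in the mature section.

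Against the mature section, the log2 BS/M was higher at maturing by 1.93 for PIP2-1 (GRMZM2G014914), 5.24 for gln3 (GRMZM2G046601), 2.27 for eno2 (GRMZM2G048371), 3.35 for MYBR32 (GRMZM2G088524), 2.25 for the profilin PRO4 (GRMZM2G108780), 4.03 for XTR8 (GRMZM2G113761), 3.58 for the fructose-1,6-bisphosphatase GRMZM2G322953, 4.10 for trxh1 (GRMZM2G424053) and 9.72 for GRMZM2G542538. The difference was -1.73 for rf2c (GRMZM2G071021) and -3.38 for PIN10a (GRMZM2G126260), which were more M-enriched at maturing. For PIN10a it equals the log2 BS/M at maturing, as it would for a gene absent from both cell types at mature. Changed bias and lost transcript cannot be told apart for PIN10a from these values. It was -1.56 for ACP4 (GRMZM2G122324) and -2.18 for ACP2 (GRMZM2G149580), whose BS enrichment was larger in the mature section. For GRMZM2G587440, a gene of 1 fitted read in each maturing M library, the change was -7.62 against SST and -7.62 against mature. It is listed at 0 in maturing BS cells, and its means were 0 in both cell types at SST and at mature. Its change is thus one of presence in the maturing M libraries.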

How the results depend on the processing

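No alternative turned the direction of a named gene that was called, and none called any gene in the opposite direction. Among named genes not called, Pgk-2 (GRMZM2G382914) turned, with a log2 BS/M of -0.08 in the text, 0.09 with FPKM as deposited and 0.08 with median-of-ratios factors. Of 147 genes named, 136 were called as BS-enriched or M-enriched. Of these, 128 were also called with FPKM as deposited, 128 with median-of-ratios factors, 119 without limma's trend, 87 to 99 without 1 of the maturing libraries and 27 in a separate fit of the 4 maturing libraries. Under every alternative 22 were called. The balance of calls moved with the scaling, with 1758 BS-enriched and 848 M-enriched genes as deposited and 1763 and 858 with median-of-ratios factors. The separate fit, with fewer libraries, gave 198 BS-enriched and 169 M-enriched genes (96 and 59 shared with those in the text), a threshold of 0.05 gave 2544 and 2691, and limma without trend gave 757 M-enriched genes. Leaving out 1 maturing library gave 796 to 2066 BS-enriched and 438 to 830 M-enriched genes. It gave 1223 and 438 without the first BS library, 2066 and 830 without the second, 855 and 750 without the first M library and 796 and 767 without the second. The lone library left is assumed to vary like the other groups. It also gave 487 to 1519 changes against SST and 576 to 1741 against mature, each more than the 100 and 304 in the text, and the cause was not tested. With no filter, 209 changes against SST were called. Same-numbered libraries of the 2 cell types did not deviate together (correlation of deviations across genes 0.0164 in SST, -0.00748 in maturing and -0.0198 in mature leaf). A correlation across all genes cannot tell whether same-numbered libraries came from the same plants or preparation, so a pairing by replicate number stays possible. A fit with the replicate block gave 666 BS-enriched and 195 M-enriched genes and, by limma, 0 changes against SST and 0 against mature, beside 4576 and 5423 at an unadjusted p under 0.05. Without genes of fewer than 10 fitted reads, an alternative added after seeing the data, 1801 BS-enriched and 1479 M-enriched genes were called, of which 1494 and 1111 were also called among all genes.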

Other observations

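Further groups of the study's table, which the study drew from these same samples, are described here. Among 59 genes of cell cycle and division, 11 were BS-enriched and 3 M-enriched. The most abundant, GRMZM2G326111, annotated as a peptidyl-prolyl isomerase and not as a cyclin, had 2976 and 2491 FPKM in BS cells, against 294 and 225 FPKM in M cells (log2 BS/M 3.40 ± 0.22, adjusted p = 6.33e-05), and the cyclin gene GRMZM2G160563 had 50.1 and 48.1 FPKM in BS cells, against 7.90 and 7.81 FPKM in M cells (log2 BS/M 2.60 ± 0.33, adjusted p = 0.00133). The D-type cyclin gene cycD2 (GRMZM2G075117) lay on the other side at a low level, with 0.726 and 0.53 FPKM in BS cells, against 2.41 and 2.61 FPKM in M cells (log2 BS/M -1.65 ± 0.28, adjusted p = 0.00503). Of 46 genes of DNA synthesis, 2 were BS-enriched and 8 M-enriched, but 4 and 5 with FPKM as deposited. The 2 and 8 are 4.35% and 17.4%, beside 4.82% and 3.56% of all genes tested. An M-enriched one was a helicase gene, GRMZM2G175867, with 15.5 and 16.04 FPKM in BS cells, against 54.4 and 47.3 FPKM in M cells (log2 BS/M -1.67 ± 0.13, adjusted p = 0.000149). Of 9 genes of myo-inositol metabolism, 3 were BS-enriched and none M-enriched, with the monophosphatase gene GRMZM2G051276 at 107 and 117 FPKM in BS cells, against 28.2 and 34.5 FPKM in M cells (log2 BS/M 1.84 ± 0.16, adjusted p = 0.00023).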
